A study of Mus musculus with 18 samples.

Results

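miR-21a is a mouse microRNA (miRNA) gene whose hairpin precursor gives a guide arm, miR-21a-5p, and a passenger arm, miR-21a-3p. Both arms were taken from the count table by their mature names, which gave 2 of 2045 miRNA rows (1907 mature names) and of 6017 rows of small RNA genes in all. miR-21a-5p was selected on its measured share of miRNA reads, the greatest in all 6 groups, so that the size of this share is described here without a test. Fits scaled to all miRNA reads do compare the share between groups, and are given only as alternative settings. The read counts cover small RNA of dendritic cells (DC) grown from the bone marrow of C57bl/6 mice of 8 to 12 weeks, and of the extracellular vesicles (EV) that these cells released.

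The 6 groups had 3 biological replicates each. LPS-EV and LPS-DC came from cultures that received lipopolysaccharide (LPS), a component of the outer wall of bacteria that activates DC, at 1 µg/ml on day 12 and for 24 h. VitD3-EV and VitD3-DC came from cultures kept for 12 days with 10 nM VitD3 (1α,25-dihydroxyvitamin D3), which holds DC in a tolerance-promoting state. control-EV and control-DC came from untreated cultures. All cultures were grown with GM-CSF from conditioned medium, recovered on day 13 as non-adherent and semi-adherent cells without a further sort, and kept for 20 h in medium depleted of most EV, so that a remainder of vesicles from serum and from the GM-CSF-producing NIH 3T3 line can be present in EV samples. The EV came from pooled culture supernatants. A replicate number was taken to stand for 1 experiment day across all groups. EV and cells of 1 treatment and number were taken as 1 culture. The paper states that the triplicates were done on different days, but not which library belongs to which day. Replicates 3 were all sequenced in run 2, so that their day and run cannot be told apart.

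In an miRNA precursor the guide is the strand that is kept by an Argonaute protein and pairs with target mRNAs, mainly through its seed, bases 2 to 8. The passenger strand is usually degraded. miR-21 is among the most abundant miRNAs of many mammalian cells, is known to be induced downstream of Toll-like receptors and STAT3 in myeloid cells, and represses among others Pdcd4, a translation inhibitor. Mir21a lies on mouse chromosome 11 on the minus strand (GRCm38.p6, the mm10 build of the counts; 86584067 to 86584158), and this stretch falls within exon 12, the last exon of Vmp1, which encodes a vacuole membrane protein, and within its annotated untranslated part. The guide covers chr11:86584120-86584141 and the passenger chr11:86584082-86584103.

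The mature arms are shown because the results concern their ratio, and 2 near-copies from other chromosomes are shown because a read could be assigned to the wrong copy. The sequences are from RefSeq and are written 5′ to 3′, with the seed in capitals:
miR-21a-5p: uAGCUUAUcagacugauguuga
miR-21a-3p: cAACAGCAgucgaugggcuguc
miR-21b: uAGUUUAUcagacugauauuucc
miR-21c: uAGCUUAUcagacugguacaa

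miR-21b (chromosome 3) differs from miR-21a-5p at 4 of 22 compared positions, by C4U, G18A, G21U and A22C, counted from the 5′ end with the base of miR-21a-5p first. miR-21c (chromosome 8) carries the seed of miR-21a-5p and differs from it at 5 of 21 positions, by A16G, G18A, U19C, U20A and G21A. Other mature miRNAs with that seed can exist, since 1623 of 1907 names matched a mature sequence of the reference. The row of miR-21b held 1 read and the row of miR-21c held 3 reads over all 18 libraries, so next to none of the signal was counted at a near-copy.

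EV libraries held 410968 to 3053774 counted reads, of which 33337 to 329240 were miRNA reads, and cellular libraries held 12427662 to 42065263 counted reads with 1025913 to 4247919 miRNA reads. The smallest EV library was LPS-EV replicate 2. Of 18 pairs of libraries within a group, 0 were identical. Myeloid and haematopoietic markers (miR-223-3p, both arms of miR-142a and miR-155-5p; 4 of 4 with reads) made up 0.402 to 2.75% of miRNA reads in EV and 0.257 to 1.33% in cells. Muscle miRNAs (miR-1a-3p, miR-133a-3p and miR-206-3p) stood apart in replicate 3. With all rows of these names they made up 13.3 to 14.8% of the class in LPS-EV, VitD3-EV and control-EV of replicate 3, against at most 0.0238% in the other EV libraries, and 0.720 to 1.49% in cells of replicate 3, against at most 0.0404%. The erythroid, endothelial, epithelial, stromal, liver, neuronal and lymphoid markers each summed to at most 0.153% in EV and 0.0291% in cells. Erythroid markers took 0.00441 to 0.0382% in EV and at most 0.00221% in cells. Endothelial markers took 0.00756 to 0.126% in EV and at most 0.00306% in cells. For the rest of these lists the ranges of EV and cells overlapped. miR-150-5p (lymphoid) was at 0 in EV, and miR-144-3p (erythroid), miR-214-3p (stromal) and miR-124-3p (neuronal) were at 0 in cells.

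The guide arm was the most abundant miRNA in 18 of 18 libraries. In EV it took 39.7, 44.5 and 31.6% of miRNA reads in LPS-EV (replicates 1, 2 and 3), 51.9, 62.6 and 46.6% in VitD3-EV and 36.6, 37.1 and 30.4% in control-EV. Every VitD3-EV library lay above every LPS-EV and control-EV library, and the LPS-EV and control-EV libraries overlapped. In cells it took 32.2, 39.8 and 36% in LPS-DC, 41.4, 65.5 and 54.0% in VitD3-DC and 24.2, 35.3 and 24.1% in control-DC. VitD3-DC again lay above LPS-DC and control-DC without overlap, and LPS-DC overlapped with control-DC. In read numbers the guide was counted 14838 to 100106 times in an EV library and 248751 to 2292472 times in a cellular one, and the widest 95% Wilson interval of a share spanned 1.07 percentage points. The intervals cover counting error only, since reads amplified by PCR without molecular identifiers are not independent molecules.

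**Figure D1:**
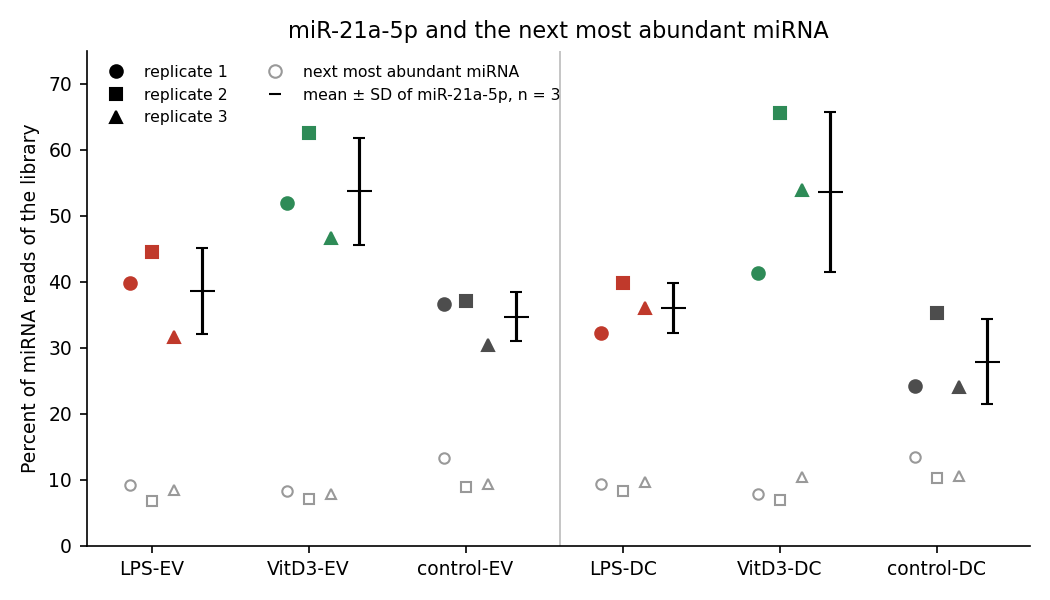
Share of miR-21a-5p in the miRNA reads of each library (y axis, percent) in the 6 groups (x axis); filled symbols are libraries, shaped by replicate, bars are mean ± SD (n = 3), and open grey symbols are the next most abundant miRNA of the same library. The VitD3-EV libraries sit between 46.6 and 62.6% and the VitD3-DC libraries between 41.4 and 65.5%, above the control libraries of the same compartment, and the next miRNA lies between 6.76 and 13.5%.

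By mean share the groups followed the order VitD3-EV (53.7% ± 8.12, SD, n = 3), VitD3-DC (53.6% ± 12.1), LPS-EV (38.6% ± 6.50), LPS-DC (36% ± 3.78), control-EV (34.7% ± 3.74) and control-DC (27.9% ± 6.45). The libraries of all neighbors in this order overlapped. The next most abundant miRNA was miR-146b-5p in 17 libraries and miR-27b-3p in VitD3-DC replicate 2, at 6.76 to 13.5% of miRNA reads. miR-146b-5p is a feedback inhibitor of Toll-like receptor signaling and miR-27b-3p is encoded in the miR-23b cluster. The guide thus had 1.8 to 9.53 times the reads of the runner-up.

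Within each replicate number the share in VitD3-EV exceeded that in control-EV by 15.3, 25.4 and 16.2 points, and the share in VitD3-DC exceeded that in control-DC by 17.1, 30.2 and 29.9 points. For LPS these differences were 3.13, 7.39 and 1.24 points in EV and 7.95, 4.43 and 11.9 points in cells, all of 1 sign, while the libraries of LPS and control overlapped in both compartments. Both treatments were set against the same control libraries. Replicates 1 were sequenced in run 1 and replicates 3 in run 2, and replicate 2 of VitD3-DC is labelled run 2 where the other libraries of that number are labelled run 1. The VitD3 difference was therefore present in run 1 (replicate 1) and in run 2 (replicate 3), in EV and in cells.

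In EV the share was lowest in replicate 3 of every group, where the muscle miRNAs were high. Leaving their rows out of the total gave 36.5% in LPS-EV, 54.7% in VitD3-EV and 35.4% in control-EV for replicate 3, and the VitD3-EV libraries (51.9 to 62.6%) stayed above the control-EV libraries (35.4 to 37.1%). Some mature miRNAs stand in several rows because identical copies share reads, as for miR-9-5p, whose 3 rows differed by at most 0.345%. Rows beyond the first of a name held 5.56 to 23.6% of the miRNA total. With 1 row per mature name the share of the guide was 47.1% ± 5.65 in LPS-EV, 59.6% ± 6.76 in VitD3-EV and 42.6% ± 2.70 in control-EV, and 44.1% ± 4.2 in LPS-DC, 59.3% ± 10.1 in VitD3-DC and 35.9% ± 8.01 in control-DC (SD, n = 3 each), with VitD3 and control libraries again apart.

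Relative to the other miRNAs the guide was higher in VitD3-EV and in VitD3-DC than in their controls, and no change was called after LPS. Levels for these tests are normalized counts (CPM of miRNA reads) after scaling by the trimmed mean of M values (TMM), which is set by the bulk of the rows, so that a single row can exceed the nominal total. A row was called at a false discovery rate (FDR, Benjamini-Hochberg) below 0.05 in the edgeR quasi-likelihood test with the replicate number as a block. In EV the guide had 542197, 733443 and 654702 normalized counts in VitD3-EV, against 341199, 256327 and 360998 in control-EV. The groups did not overlap, and the guide was 2.04-fold higher (log2FC 1.03, SE 0.21, edgeR FDR = 1.19e-04). It was 1 of 20 called rows among 281 tested (7.12%). The SE and FDR of the EV fit rest mostly on spread shared between rows (180.2 degrees of freedom, against 13.3 in cells). The sizes of the EV and cellular FDR are therefore not comparable as evidence from the replicates.

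LPS-EV had 388980, 294616 and 374420 normalized counts of the guide, which overlapped with control-EV. The log2FC was 0.15 (SE 0.21, edgeR FDR = 0.915) with a 95% interval of -0.26 to 0.55, in a comparison with 1.42% of rows called. Against VitD3-EV the guide was lower in LPS-EV (log2FC -0.88, SE 0.21, edgeR FDR = 7.32e-04), where 14.6% of rows were called. These EV calls depended on single libraries. The call of VitD3-EV over control-EV was lost without control-EV replicate 1 (log2FC 1.13, FDR = 0.0598) or replicate 3 (1.17, FDR = 0.103), and that of LPS-EV under VitD3-EV without LPS-EV replicate 1 (-1.04, FDR = 0.0577), LPS-EV replicate 2 (-0.85, FDR = 0.225) or all of replicate 3 (-0.93, FDR = 0.126). Without the replicate block the 2 estimates were 1.01 (FDR = 0.352) and -0.87 (FDR = 0.200), neither called.

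In cells the guide had 368837, 1077460 and 780816 normalized counts in VitD3-DC, against 221130, 336754 and 225095 in control-DC. The groups were apart, though the spread within VitD3-DC was wide, and the guide was 2.65-fold higher (log2FC 1.40, SE 0.35, edgeR FDR = 0.0366) in a comparison with 4.39% of 456 rows called. The call was lost in 10 of 12 fits that left out a replicate or a library, at log2FC of 1.09 to 1.73 and FDR up to 0.209, and without the replicate block (1.51, FDR = 0.168). LPS-DC had 215132, 305459 and 406418 normalized counts, spanning the control-DC values, and the log2FC was 0.22 (SE 0.34, edgeR FDR = 0.839) with an interval of -0.51 to 0.96; 0.877% of rows were called. For LPS-DC against VitD3-DC the log2FC was -1.18 (SE 0.34, edgeR FDR = 0.0567), which missed the threshold where 7.02% of rows passed it. The same comparison was called under 5 of 10 other settings. They were the likelihood ratio test (FDR = 0.0254), DESeq2 (FDR = 0.0196) and the class total without the guide (edgeR FDR = 0.00667). A minimum of 1 read (edgeR FDR = 0.0396) and 1 row per name (edgeR FDR = 0.0271) also called it. The remaining settings did not, at edgeR FDR up to 0.161 (no replicate block). Of 12 leave-out fits 2 called it, without control-DC replicate 2 (-1.20, edgeR FDR = 0.0457) or replicate 3 (-1.12, edgeR FDR = 0.0231). The others did not, at edgeR FDR up to 0.359. In bulk libraries a change in the number of cells that carry an miRNA and a change in its amount per cell cannot be told apart.

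**Figure D2:**
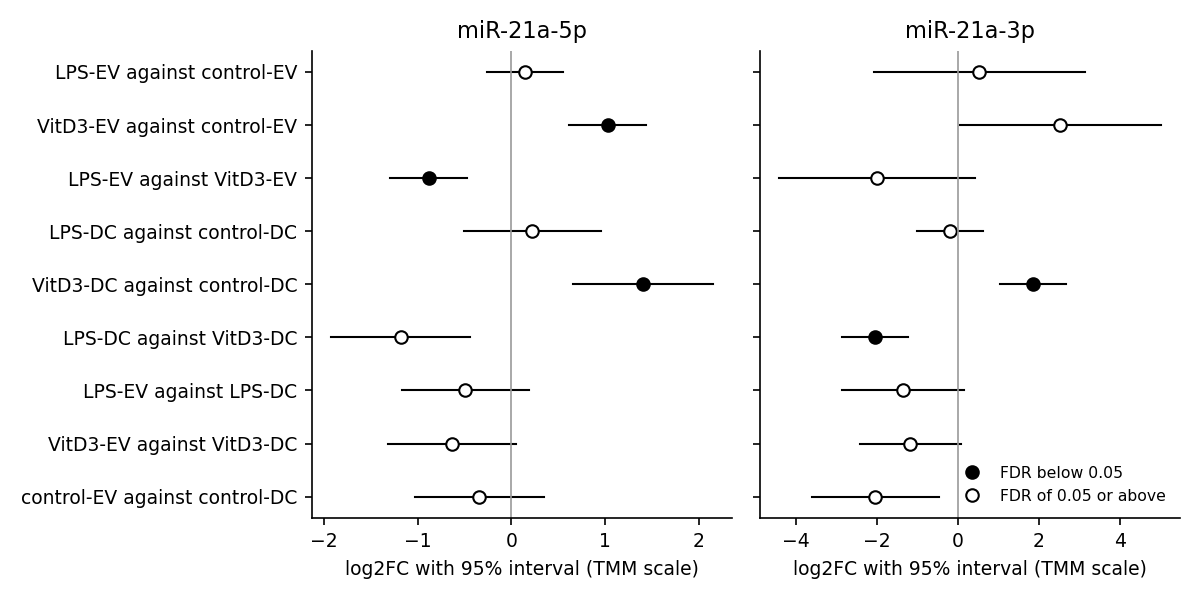
log2FC of miR-21a-5p (left) and miR-21a-3p (right) with 95% intervals (x axis, TMM scale) for 9 comparisons (y axis); filled points have an edgeR FDR below 0.05. For the guide VitD3-EV against control-EV (1.03) and VitD3-DC against control-DC (1.40) are filled and to the right of 0, and for the passenger VitD3-DC against control-DC (1.85) is filled while the EV intervals are wide.

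The passenger arm was rare. It was read 0 to 6 times in EV libraries and 20 to 210 times in cellular ones. LPS-EV held 5, 0 and 1 reads, VitD3-EV held 3, 6 and 2 and control-EV held 2, 0 and 2. LPS-DC held 67, 44 and 25 reads, VitD3-DC held 77, 210 and 183 and control-DC held 20, 57 and 24. The passenger was counted in 16 of 18 libraries, and in LPS-EV replicate 2 and control-EV replicate 2, where it had no read, a count of 0 allows a passenger percent of up to 0.0202% and 0.0137%.

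In cells the passenger rose with VitD3. It had 44.1, 160.0 and 62.3 normalized counts in VitD3-DC, against 17.8, 39 and 14.6 in control-DC. These groups did not overlap, and the passenger was 3.62-fold higher (log2FC 1.85, SE 0.38, edgeR FDR = 0.0134). LPS-DC, at 21.2, 28.0 and 10.4 normalized counts, overlapped with control-DC (log2FC -0.19, SE 0.38, edgeR FDR = 0.897, 95% interval -1.01 to 0.63), and was below VitD3-DC without overlap (log2FC -2.04, SE 0.38, edgeR FDR = 0.00397). The VitD3-DC call was lost in 6 of 12 leave-out fits (log2FC 1.56 to 2.06, FDR up to 0.190), with scaling to the class total (1.35, FDR = 0.0955) and without the replicate block (1.89, FDR = 0.168). The LPS-DC against VitD3-DC call was lost in 3 of 12: without replicate 1 (-2.42, FDR = 0.0734), without replicate 3 (-1.63, FDR = 0.173) and without LPS-DC replicate 2 (-1.74, FDR = 0.0576). It was also lost with the class total (-1.38, FDR = 0.0685) and without the replicate block (-2.16, FDR = 0.0950).

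In EV the few passenger reads left wide intervals. VitD3-EV over control-EV had a log2FC of 2.53 (SE 1.26, edgeR FDR = 0.295, 95% interval 0.04 to 5.02), LPS-EV over control-EV had 0.53 (SE 1.32, edgeR FDR = 0.953) and LPS-EV over VitD3-EV had -2.00 (SE 1.23, edgeR FDR = 0.374). None of these was called, and at an unadjusted edgeR p of 0.0463 VitD3-EV over control-EV was the lowest.

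The ratio of the arms compares both products of the same hairpin within a library and does not depend on how libraries are scaled. Over all libraries the passenger made up 0.00412% of both arms in EV (21 of 509210 reads, 95% Clopper-Pearson interval 0.00255 to 0.00630%) and 0.00930% in cells (707 of 7598452 reads, 0.00863 to 0.0100%). Among the cellular libraries there was 1 passenger read for every 6733 (VitD3-DC replicate 2) to 39101 (LPS-DC replicate 3) guide reads. The mean percent was 0.00242 ± 0.00319 in LPS-EV, 0.0102 ± 0.0108 in VitD3-EV and 0.00181 ± 0.00173 in control-EV, and 0.00719 ± 0.00403 in LPS-DC, 0.0116 ± 0.00345 in VitD3-DC and 0.00871 ± 0.00261 in control-DC (SD, n = 3 each). In exact permutation tests of 3 against 3 libraries (two-sided, smallest possible p 0.1) the p was 0.1 for VitD3-EV against control-EV and 0.3 to 0.9 for the other 5 comparisons of treatments, so that none could pass 0.05. The VitD3-EV mean was set by replicate 2, which had 6 passenger reads and a percent of 0.0226.

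**Figure D3:**
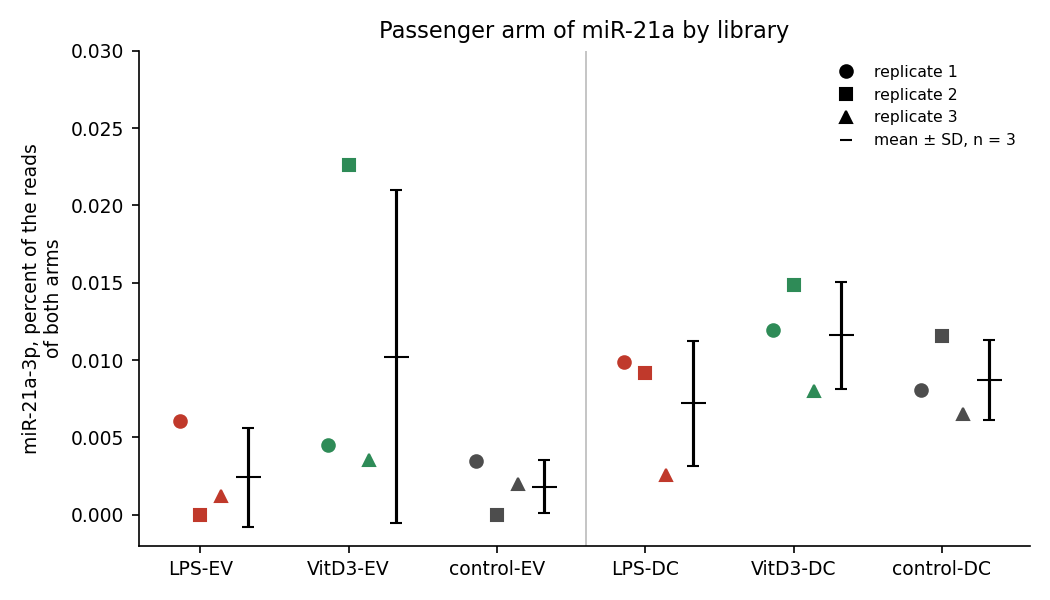
Reads of miR-21a-3p as a percent of the reads of both arms (y axis) by library in the 6 groups (x axis), shaped by replicate, with mean ± SD (n = 3). EV libraries lie at 0 to 0.0226% and cellular libraries at 0.00256 to 0.0149%.

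The passenger percent was lower in EV than in the cells of the same culture in 8 of 9 pairs, with VitD3 replicate 2 as the exception. It averaged 0.00482 ± 0.00698 in EV and 0.00917 ± 0.00353 in cells (SD, n = 9), a difference of -0.00435 (exact sign-flip permutation test over 9 pairs, two-sided, p = 0.0469, smallest possible 0.00391). The test took the 9 pairs as independent, though cultures of 1 replicate number were taken to share an experiment day. EV libraries counted 21 passenger reads in all, and the test no longer passed without replicate 1 or 3 (-0.00387 and -0.00481, exact p = 0.219 and 0.156) or when the 18 libraries were permuted without the pairing (permutation p = 0.114).

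Among hairpins with both arms annotated and at least 100 reads, the percent of miR-21a lay below the median in both compartments. It was undercut by 32 of the 127 other hairpins in EV, 31 of them with no read of the rarer arm, and by 44 of the 193 others in cells, 39 of them with none. The median over all such hairpins was 0.414% in EV and 0.945% in cells. Among hairpins with at least 10000 reads in cells, 12 of 63 others lay below miR-21a, from the let-7, miR-1a, miR-7a, miR-26a, miR-101a, miR-103 and miR-192 families, and the median was 0.181%. In EV, 6 of 17 others of that depth lay below it, from the let-7, miR-1a and miR-7a families, and the median was 0.0167%. Copies of a hairpin that share guide reads enter once each. Others kept both arms in cells: there the rarer arm made up 40.6% for miR-142a and 46.9% for miR-423.

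The difference in guide share between EV and the cells that released them varied between cultures. Its direction depended on the scale and on the rows in the total. Across the 9 cultures the share was higher in EV in 6 and lower in 3, with a mean difference of 3.19 ± 6.86 points (SD). It differed by 7.53, 4.75 and -4.34 points in LPS cultures, 10.6, -2.93 and -7.35 in VitD3 cultures and 12.3, 1.8 and 6.34 in control cultures. Without the muscle miRNAs in the total, replicate 3 differed by -0.039 points in LPS, 0.33 in VitD3 and 11.0 in control cultures, and over all cultures the share was higher in EV in 7 and lower in 2 (mean 5.04 ± 5.56 points). With 1 row per mature name it was higher in 5 and lower in 4 (mean 3.32 ± 6.0 points), and the pair of control replicate 2 then differed by -0.61 points.

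**Figure D4:**
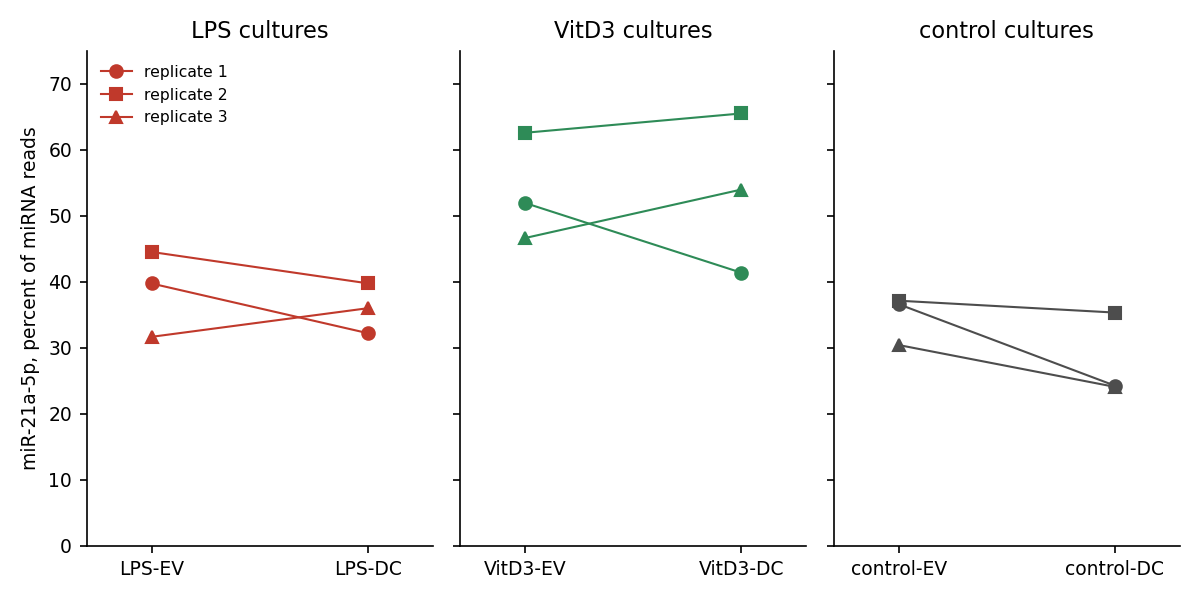
Share of miR-21a-5p in miRNA reads (y axis, percent) in EV (left) and cells (right) of the same culture, joined by a line, for LPS, VitD3 and control cultures (panels). With all rows in the total the EV value is the higher in 6 of 9 cultures, and the lines cross in LPS and VitD3 cultures.

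On the TMM scale of all 18 libraries, with the culture as block, the guide had a log2FC of -0.49 in LPS-EV against LPS-DC (SE 0.35, edgeR FDR = 0.530), -0.63 in VitD3-EV against VitD3-DC (SE 0.35, edgeR FDR = 0.315) and -0.34 in control-EV against control-DC (SE 0.35, edgeR FDR = 0.707). In these comparisons 7.88%, 9.75% and 12.7% of 482 rows were called. The median row was itself at -0.33, -0.56 and -0.23, so that the guide lay close to the bulk of the class. With scaling to the class total the 3 values were 0.094, 0.017 and 0.33, and again none was called. The passenger had -1.37 (SE 0.77, edgeR FDR = 0.365), -1.17 (SE 0.64, edgeR FDR = 0.304) and -2.04 (SE 0.80, edgeR FDR = 0.0777), of which the control value was called only without LPS culture replicate 2 (-2.09, FDR = 0.0482).

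The effect of treatment was then compared between EV and cells by the difference of differences. For the guide it was -0.15 for LPS (SE 0.49, 95% interval -1.12 to 0.82) and -0.29 for VitD3 (SE 0.49, -1.26 to 0.67), both at an edgeR FDR = 1. For the passenger it was 0.67 (SE 1.19, edgeR FDR = 0.975) and 0.87 (SE 1.06, edgeR FDR = 1). Neither arm passed, and the intervals leave room for differences of over 1 on the log2 scale. Of 482 rows 0% were called for LPS (0 rows by edgeR and by DESeq2, 21 at an unadjusted p under 0.05) and 0.207% for VitD3 (1 row).

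A row that takes 24.1 to 65.5% of the reads also sets what is left for the others. The miRNA reads other than the guide made up 61.4% of the class in LPS-EV, 46.3% in VitD3-EV and 65.3% in control-EV, and 64.0% in LPS-DC, 46.4% in VitD3-DC and 72.1% in control-DC. The log2 ratio of this remainder was -0.50 for VitD3-EV and -0.64 for VitD3-DC over their controls, and -0.09 for LPS-EV and -0.17 for LPS-DC. An miRNA that kept its place among the others would show these values when expressed relative to all miRNA reads.

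The median of the other rows was set beside these ratios. Among the 280 other tested rows in EV, the median log2 ratio of group mean CPM (miRNA counts scaled to library size, pseudocount of 1) in VitD3-EV over control-EV was -0.44 relative to all miRNA reads and 0.04 relative to the reads other than the guide, and 70.0% against 48.9% of rows were below 0. The change of denominator moves all other rows by about the same amount, so that the number of rows that cross 0, here 59, follows from it and is a description. In VitD3-DC over control-DC, with 455 other rows, the medians were -0.33 and 0.21, with 67.5% and 40.2% of rows below 0, and 124 rows changed direction. For LPS the medians were -0.09 and -0.01 in EV and 0.10 and 0.26 in cells, and 18 and 43 rows changed direction. Relative to all miRNA reads the medians were thus near the ratio of the remainder in EV (-0.44 beside -0.50 for VitD3, -0.09 beside -0.09 for LPS), but above it in cells (-0.33 beside -0.64 for VitD3, 0.10 beside -0.17 for LPS).

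**Figure D5:**
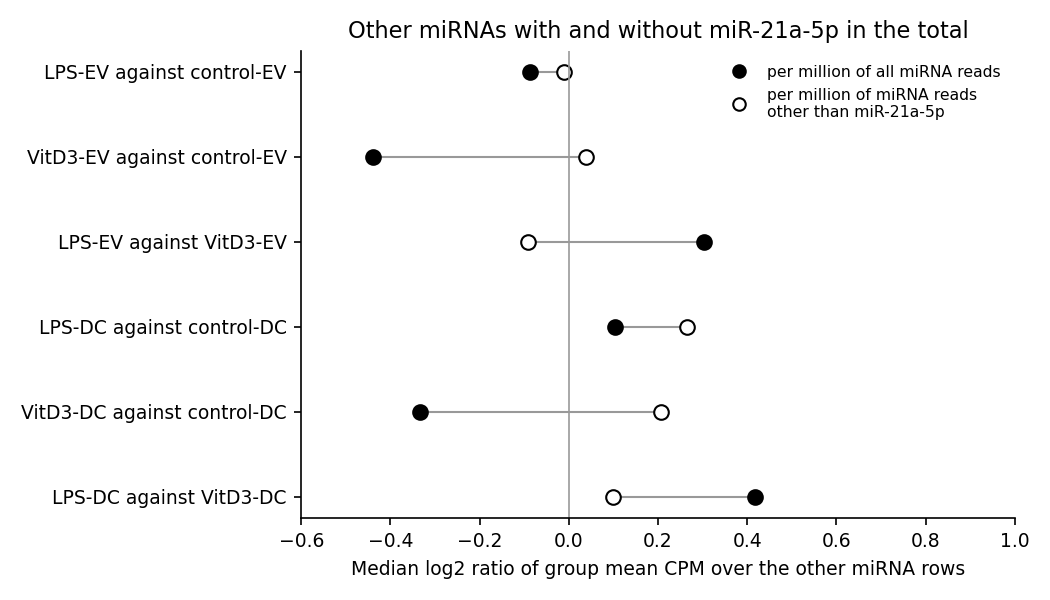
Median log2 ratio of group mean CPM (x axis) over the other tested miRNA rows for 6 comparisons (y axis), relative to all miRNA reads (filled) and to the miRNA reads other than miR-21a-5p (open). For VitD3-EV against control-EV the median moves between -0.44 and 0.04, and for VitD3-DC against control-DC between -0.33 and 0.21.

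For miR-146b-5p and let-7i-5p, among the 5 most abundant miRNAs after the guide, the order of the VitD3 and control means turned with the denominator in both compartments. miR-146b-5p took 8.16% ± 1.27 of miRNA reads in LPS-EV, 7.74% ± 0.582 in VitD3-EV and 10.5% ± 2.41 in control-EV, but 13.3% ± 1.76, 17.0% ± 2.17 and 16.1% ± 4.14 of the reads other than the guide, in the same order (SD, n = 3 each). In the TMM test of VitD3-EV against control-EV its log2FC was -0.01 (edgeR FDR = 0.983). In cells miR-146b-5p took 9.09% ± 0.763, 7.92% ± 2.53 and 11.4% ± 1.77 of all miRNA reads in LPS-DC, VitD3-DC and control-DC. Of the remainder it took 14.2% ± 0.834, 17.3% ± 4.87 and 15.8% ± 1.95. For miR-146b-5p the VitD3 and control means of the remainder differed by less than their SDs in both compartments. let-7i-5p, of the growth-restraining let-7 family, took 2.09% ± 0.248 in VitD3-EV and 2.50% ± 0.369 in control-EV, and 4.55% ± 0.310 and 3.82% ± 0.388 of the remainder. In cells let-7i-5p took 3.04% ± 0.609 in VitD3-DC and 3.94% ± 0.747 in control-DC, and 6.64% ± 0.791 and 5.43% ± 0.671 of the remainder. let-7f-5p took 2.34% ± 0.468 of miRNA reads in VitD3-EV and 3.41% ± 1.3 in control-EV, and 5.07% ± 0.490 and 5.17% ± 1.76 of the remainder. In cells it took 2.88% in VitD3-DC and 4.49% in control-DC, and 6.23% and 6.21% of the remainder, a difference in means far within the spread (SD 0.111 and 0.580).

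miR-27b-3p and miR-9-5p moved on either denominator. miR-27b-3p took 5.83% ± 1.56 of miRNA reads in VitD3-EV and 3.76% ± 0.480 in control-EV, and 12.5% ± 2.28 and 5.76% ± 0.718 of the remainder; its TMM log2FC was 0.99 in VitD3-EV (SE 0.23, edgeR FDR = 0.00103) and 1.63 in VitD3-DC (SE 0.30, edgeR FDR = 0.00631). miR-9-5p took 0.814% ± 0.176 in VitD3-EV and 3.91% ± 0.134 in control-EV, and 1.78% ± 0.357 and 6.01% ± 0.505 of the remainder (1 of its 3 rows), with a log2FC of -1.90 (SE 0.24, edgeR FDR = 2.36e-11). In cells miR-9-5p took 1.74% ± 1.73 in VitD3-DC and 6.35% ± 0.516 in control-DC, and 3.26% ± 2.81 and 8.90% ± 1.58 of the remainder. There it was not called (log2FC -1.92, SE 0.59, edgeR FDR = 0.0795).

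The number of effective miRNAs, the inverse Simpson index over mature names, gives how many equally abundant miRNAs would be as diverse as the library. It was 4.18 ± 0.793 in LPS-EV, 2.74 ± 0.505 in VitD3-EV and 4.75 ± 0.433 in control-EV, and 4.59 ± 0.707 in LPS-DC, 2.84 ± 0.901 in VitD3-DC and 6.04 ± 1.58 in control-DC (SD, n = 3 each). VitD3 libraries were the lowest in both compartments and did not overlap with control libraries. Without the guide the index was 14.4 ± 3.66, 10.2 ± 1.11 and 11.7 ± 3.12 in LPS-EV, VitD3-EV and control-EV, and 12.4 ± 1.79, 9.70 ± 2.75 and 10.0 ± 1.19 in LPS-DC, VitD3-DC and control-DC. VitD3 and control libraries then overlapped in both compartments.

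The number of other miRNAs called changed with the scaling and with the guide left out. In VitD3-EV against control-EV, TMM called 19 other rows, 13 higher and 6 lower. With the row of the guide left out of the whole fit, and not only of the scaling, TMM called 20, including all 19. In this paragraph, a count without the guide has this meaning. With the class total 22 were called, 5 higher and 17 lower, of which 11 were shared with TMM, and with the class total without the guide 17 were called, 14 higher and 3 lower, of which 16 were shared. In VitD3-DC against control-DC, TMM called 15 higher and 4 lower, TMM without the guide 26 higher and 4 lower including all 19, the class total 9 higher and 12 lower with 13 shared, and the class total without the guide 29 higher and 1 lower with 16 shared. In LPS-EV against control-EV, 4 other rows were called with TMM, 8 with TMM without the guide, 4 with the class total and 5 with the class total without the guide. In LPS-DC against control-DC these numbers were 4, 7, 0 and 7. Leaving the guide out moved a library's effective size by at most 0.103 on the log2 scale in EV and 0.114 in cells under TMM, against 0.601 and 0.781 under the class total, both relative to the mean of the libraries.

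Of the miRNAs known to respond to LPS through NF-κB and related factors, a list of 13 (miR-155, miR-146a, miR-9, miR-132, miR-212 and miR-147 with both arms, and miR-146b-5p), 11 were tested in EV and 13 in cells. In LPS-EV over control-EV 2 of 11 were called higher and 0 lower (1.42% of all rows were called), at a list median log2FC of 0.04 beside -0.04 over all rows: miR-155-5p, which promotes DC activation (log2FC 2.11, edgeR FDR = 2.65e-07), and miR-146a-5p, which restrains it (1.32, edgeR FDR = 0.00145). In VitD3-EV over control-EV 0 of 11 were called higher and 2 lower (7.12% of all rows), miR-9-5p and miR-9-3p (-1.87, edgeR FDR = 0.0200), at a median of -0.97 beside -0.04. In LPS-DC over control-DC 2 of 13 were called (0.877% of all rows): miR-155-3p was higher (2.56, edgeR FDR = 0.0484) and miR-212-5p lower (-2.13, edgeR FDR = 0.0484), at a median of 0.50 beside -0.04. There miR-155-5p, at 2.30, narrowly missed the threshold (edgeR FDR = 0.0513). In VitD3-DC over control-DC none of the 13 was called by edgeR (4.39% of all rows), with 2 at an unadjusted p under 0.05 (miR-9-5p and miR-9-3p), at a median of -0.19 beside 0.03. The guide, also known as responsive to Toll-like receptors, was thus called with VitD3 and not with LPS, though at LPS its interval in cells reached 0.96.

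The miRNAs whose levels followed the guide most closely were picked among 53 mature names with a mean of at least 100 reads per library in both compartments, by the lower of Pearson's r over the 9 EV and the 9 cellular libraries of log2 normalized counts. They were miR-10a-5p (r = 0.862 in EV and 0.887 in cells), miR-27b-3p (0.775 and 0.907), miR-222-3p (0.753 and 0.735), miR-378a-3p (0.665 and 0.835) and miR-223-5p (0.729 and 0.497). The libraries share treatments, days and depth, so these values are descriptions, and the treatment differences of miRNAs picked over the same libraries add no separate support. In VitD3-EV over control-EV all 5 were higher: miR-10a-5p, encoded in a Hox cluster, by log2FC 1.66 (edgeR FDR = 4.47e-05), miR-222-3p by 1.20 (FDR = 0.00325), miR-378a-3p, encoded in Ppargc1b, by 1.00 (FDR = 0.00697), miR-223-5p by 0.99 (FDR = 0.0444) and miR-27b-3p as above. In VitD3-DC miR-10a-5p had 2.07 (edgeR FDR = 0.00322) and miR-378a-3p 1.99 (edgeR FDR = 0.00631), while miR-222-3p (1.06, FDR = 0.0776) and miR-223-5p (-0.08, FDR = 0.934) were not called.

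For the passenger, the closest of 54 names was its own guide (r = 0.858 in EV and 0.809 in cells), followed by miR-222-3p (0.769 and 0.848), miR-10a-5p (0.623 and 0.710), miR-24-3p (0.536 and 0.954) and miR-181a-5p (0.474 and 0.566). The EV values rest on 0 to 6 passenger reads per library. By Spearman's rho the 5 names closest to the guide were the same, and for the passenger 3 of the 5 were, with miR-27b-3p and miR-101a-3p in place of miR-10a-5p and miR-181a-5p.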

How the data were processed

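Counts of reads per small RNA gene were deposited by the authors as whole numbers, without normalization. By the study's methods, ribosomal RNA was depleted and gel size fractions of the pooled libraries were recombined; reads of at least 17 bases were kept (cutadapt 1.8), aligned to mm10 with gsnap (up to 3 paths) and counted by strand (HTSeq 0.6.1p1, miRBase 20). Rows naming no gene numbered 0.

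Tests used edgeR 4.0.16 in R 4.3.3 (quasi-likelihood F test, two-sided, TMM within the miRNA class, prior count 2 for log values, a minimum of 10 reads summed over the fitted libraries), separately for the 9 EV and 9 cellular libraries. EV and cells were compared in 1 fit over 18 libraries with the culture as block. The spread was shared almost entirely between rows in this fit, and mostly so in the EV fit. Replicate number entered as a block. It was assumed to mark the experiment day, since the study fitted a day term. The study's methods do not assign libraries to days. Deviations from the group means had r of 0.206 to 0.835 between EV libraries of 1 number and 0.0391 to 0.751 between cellular ones. These values do not tell day from sequencing run. Arm ratios were compared with exact permutation tests (scipy 1.17.1).

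Simulated counts with known changes were used to check the test: of 4-fold changes, 65.7% were called for VitD3-EV against control-EV (281 rows) and 56.1% for VitD3-DC against control-DC (456 rows), and of 2-fold changes 25.7% and 10.5%. Named miRNAs were the members, near-copies, the LPS list, the 5 next most abundant miRNAs and the 5 closest to each member. Members and lists were chosen with earlier results of these data known. Mature sequences are from RefSeq (GRCm38.p6); 1623 of 1907 names matched. Alternatives were the likelihood ratio test, DESeq2 1.42.0, no block, other scalings and filters, 1 row per name and leaving out libraries; the share of the guide, and its difference between EV and cells, with 1 row per name or without muscle miRNAs were added after seeing the data.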

Additional observations from a re-analysis of the deposited data

How the results depend on the processing

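Without the replicate block, log2FC of miR-21a-5p lost its call in VitD3-EV against control-EV (1.01), LPS-EV against VitD3-EV (-0.87) and VitD3-DC against control-DC (1.51), as did miR-21a-3p in VitD3-DC against control-DC (1.89) and LPS-DC against VitD3-DC (-2.16). The number of rows called then fell to 0, 3 and 7 in the EV comparisons (LPS and VitD3 against control, LPS against VitD3), to 0, 0 and 8 in the same comparisons of cells, to 15, 24 and 26 between EV and cells (LPS, VitD3, control) and to 0 for the VitD3 difference of differences, and the paired test of the passenger percent in EV against cells (-0.00435) no longer passed. The replicate block changed no other call of a member. Scaling to the class total lost the calls of miR-21a-3p in VitD3-DC against control-DC (1.35) and LPS-DC against VitD3-DC (-1.38). It also turned the EV against cell log2FC of miR-21a-5p positive in LPS, VitD3 and control (0.094, 0.017 and 0.33; without the guide in the total 0.16, 0.00070 and 0.48). miR-21a-3p in LPS-DC against control-DC turned to 0.16 with the class total without the guide. filterByExpr lost miR-21a-5p in VitD3-DC against control-DC (1.31). For miR-21a-5p in LPS-DC against VitD3-DC the call was gained with the likelihood ratio test (-1.18), DESeq2 (-1.04), the class total without the guide (-1.06), a minimum of 1 read (-1.002) and 1 row per name (-1.07), and without control-DC replicate 2 (-1.20) or replicate 3 (-1.12). The cause of these changes was not tested. In this section, a scaling without the guide left it out of the scaling only, and its row stayed in the fit.

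Counts of called rows that moved by over 1.5 times were, for LPS-EV against control-EV, 8 (TMM without the guide); for VitD3-EV against control-EV, 11 (filterByExpr); for LPS-DC against control-DC, 21 (likelihood ratio test), 12 (DESeq2), 0 (DESeq2 size factors, class total and filterByExpr), 7 (class total or TMM without the guide), 16 (minimum of 1 read) and 11 (1 row per name); for VitD3-DC against control-DC, 55 (likelihood ratio test), 53 (DESeq2), 31 (class total without the guide), 32 (TMM without the guide) and 51 (minimum of 1 read); for LPS-DC against VitD3-DC, 50 (likelihood ratio test), 61 (minimum of 1 read) and 21 (filterByExpr); for LPS-EV against LPS-DC, 20 (DESeq2); and for the VitD3 difference of differences, 3 (DESeq2 size factors and class total) and 0 (DESeq2 and class total without the guide).

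Leaving out each replicate or library in turn gave these ranges. In EV, miR-21a-5p lay at -0.056 to 0.26 (LPS against control), 0.81 to 1.24 (VitD3 against control) and -1.13 to -0.67 (LPS against VitD3), and miR-21a-3p at -0.93 to 1.13, 1.25 to 3.67 and -3.72 to -0.84. In cells, miR-21a-5p lay at -0.080 to 0.52, 1.09 to 1.73 and -1.44 to -0.83, and miR-21a-3p at -0.51 to 0.070, 1.56 to 2.19 and -2.43 to -1.63. Between EV and cells (LPS, VitD3, control), miR-21a-5p lay at -0.85 to -0.22, -1.11 to -0.31 and -0.69 to 0.076, and miR-21a-3p at -2.62 to -0.91, -1.74 to -0.77 and -2.71 to -1.38. The differences of differences (LPS, VitD3) were -0.56 to 0.37 and -0.71 to 0.17 for miR-21a-5p, and -0.45 to 1.31 and -0.18 to 1.61 for miR-21a-3p. Rows called numbered 1 to 9, 5 to 35 and 17 to 43 in EV, 0 to 12, 0 to 26 and 0 to 63 in cells, 9 to 42, 12 to 75 and 19 to 68 between EV and cells, and 0 to 5 and 0 to 4 for the differences of differences. The passenger percent differed by -0.000389 to 0.00130 in LPS-EV against control-EV and by -0.00481 to -0.00387 in EV against cells. The log2 ratio of the remainder kept its sign in all 6 comparisons, at -0.56 to -0.39 in VitD3-EV and -0.80 to -0.54 in VitD3-DC over control. With 2 libraries left in a group, its spread is taken from the other groups. EV depth limits the passenger, with at most 6 reads per EV library.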
